A study of Homo sapiens with 12 samples.

Results

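231BR is a subline of the human breast cancer line MDA-MB-231 that homes to the brain. Its cells were compared after culture with mouse astrocytes and after culture alone, both under vehicle and without added estradiol. The comparison used 6 of the 12 arrays of the study, chosen by their treatment labels. There were 3 arrays of vehicle with astrocytes and 3 of vehicle alone. The vehicle is called OH in the labels, and the other 6 arrays received 10 nM estradiol, 3 with astrocytes and 3 alone. All cells carried EGFP, and they were sorted after 24 h of co-culture, so the RNA came from the sorted tumour cells. RNA was read on Affymetrix Human Gene ST arrays, and each value below is the deposited log2 signal of a gene on an array unless stated otherwise. The labels do not say whether the 3 replicates were separate cultures. The p-values therefore measure only the spread between these samples, which may be technical, and precision is limited by how few arrays there were. The probes were designed for human transcripts, and the labels do not give the purity of the sorted cells.

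Astrocytes are glial cells that support neurons, buffer transmitters and ions, and surround the vessels through which tumour cells enter the brain. They touch tumour cells in brain metastases and exchange signals with them through cytokines, growth factors and gap junctions. COX-2, the enzyme encoded by PTGS2, makes the precursor of the prostaglandins, and IL-6 is a cytokine that acts through the receptor subunit gp130 and the transcription factor STAT3. Both genes are known targets of NF-kB, and basal-like lines such as MDA-MB-231 express both in plain culture. COX-2 has also been linked to the passage of breast cancer cells into the brain.

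The signal spanned a narrower range on the arrays with astrocytes than on those without. The SD of the log2 values over all probe sets was 2.22, 2.18 and 2.04 in replicates 1, 2 and 3 of vehicle alone, and 2.04, 1.82 and 1.95 in those of vehicle with astrocytes. All 3 values with astrocytes lay below the lowest value without them, although replicate 1 only just did. Across genes, arrays of vehicle alone correlated with each other at r from 0.967 to 0.995 and arrays with astrocytes at r from 0.926 to 0.955, where genes are not independent replicates. The change of a gene moved with its level. Genes were placed in 10 bins of about equal number by their level in vehicle alone. In the lowest bin the median change with astrocytes was 0.36 (log2) and 94.4% of genes were higher, whereas in the ninth the median was −0.66. After quantile normalization these medians were 0.08 and −0.20, and in a fit that took each array's SD as covariate they were 0.04 and 0.11. The array SD comes from the same values and separates the 2 groups, so that fit may also take away part of a real change. The median over all 17958 genes was 0.06. The part that the range of signal had in any single change was not tested, so values under both of these settings stand beside most gene groups below. Among 7506 genes whose groups did not overlap, replicate 1 with astrocytes was the one nearest to vehicle alone in 76.1% and replicate 2 was the farthest in 62.9%.

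**Figure D1:**
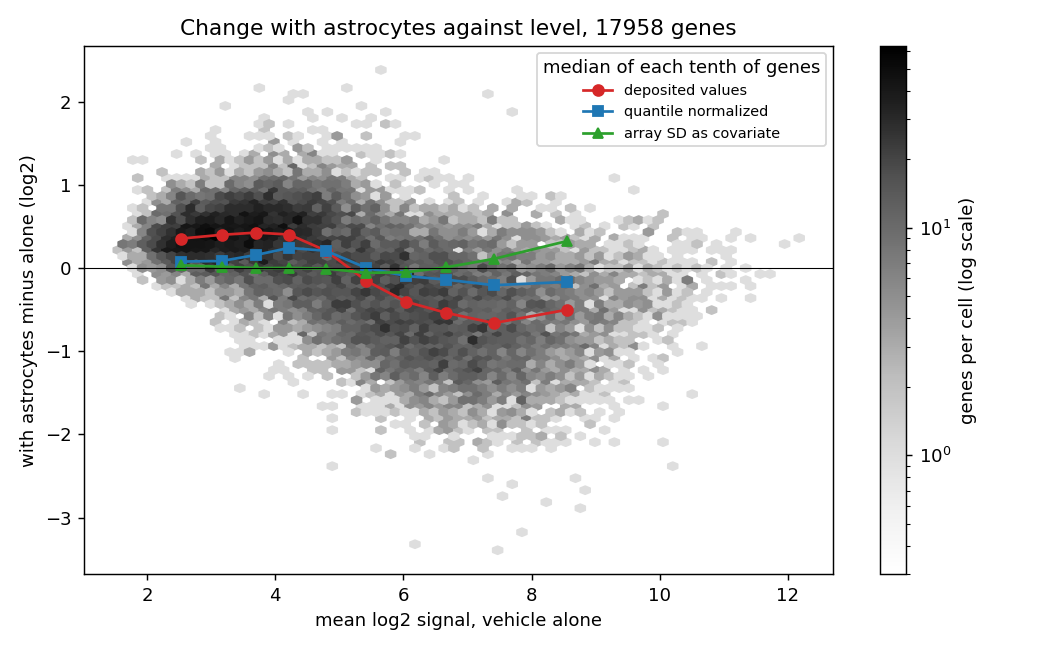
Change with astrocytes (log2, with astrocytes minus alone, vertical axis) against the mean log2 signal in vehicle alone (horizontal axis) for 17958 genes, shaded by the number of genes, with the median of each of 10 bins of level as deposited (circles), after quantile normalization (squares) and with the array SD as covariate (triangles). As deposited, the medians run from 0.36 in the lowest bin to −0.66 in the ninth; after quantile normalization they run from 0.08 to −0.20.

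The first question was how the tumour cells differed after contact with astrocytes when no estradiol was added. Of 17958 genes, 10 passed an adjusted p of 0.05 in limma (0.0557%), 3 of them higher (0.0167%) and 7 lower (0.0390%). Before adjustment 5073 of the 17958 had a p under 0.05, 2355 higher and 2718 lower. Counts of list members at that unadjusted level are to be read against this share. The limma fit took the spread of each gene from all 12 arrays. With the 6 arrays of the comparison alone, limma called 1594 genes (8.88%), 559 higher (3.11%) and 1035 lower (5.76%), and these included the same 10. Taking each array's SD as covariate, it called 1166 genes (6.49%), 736 higher (4.10%) and 430 lower (2.39%), again with the same 10 among them. After quantile normalization it called 14 (0.0780%), 4 higher (0.0223%) and 10 lower (0.0557%), with 8 of the 10 among them. In a fit of the 6 arrays with their SD as covariate, a setting added after seeing the data, no gene was called and 1507 had an unadjusted p under 0.05. The share of calls that were higher thus differed between the fits. Genes whose 3 arrays with astrocytes all lay on one side of the 3 arrays alone made up 41.8% of all genes, 23.4% higher and 18.4% lower. The 10 genes were PTGS2, IL6, DNHD1, MGC70870 and the microRNA genes MIR30C2, MIR218-1 and MIR30E on the lower side, and H2AC15, TERC and TMA7 on the higher side.

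**Figure D2:**
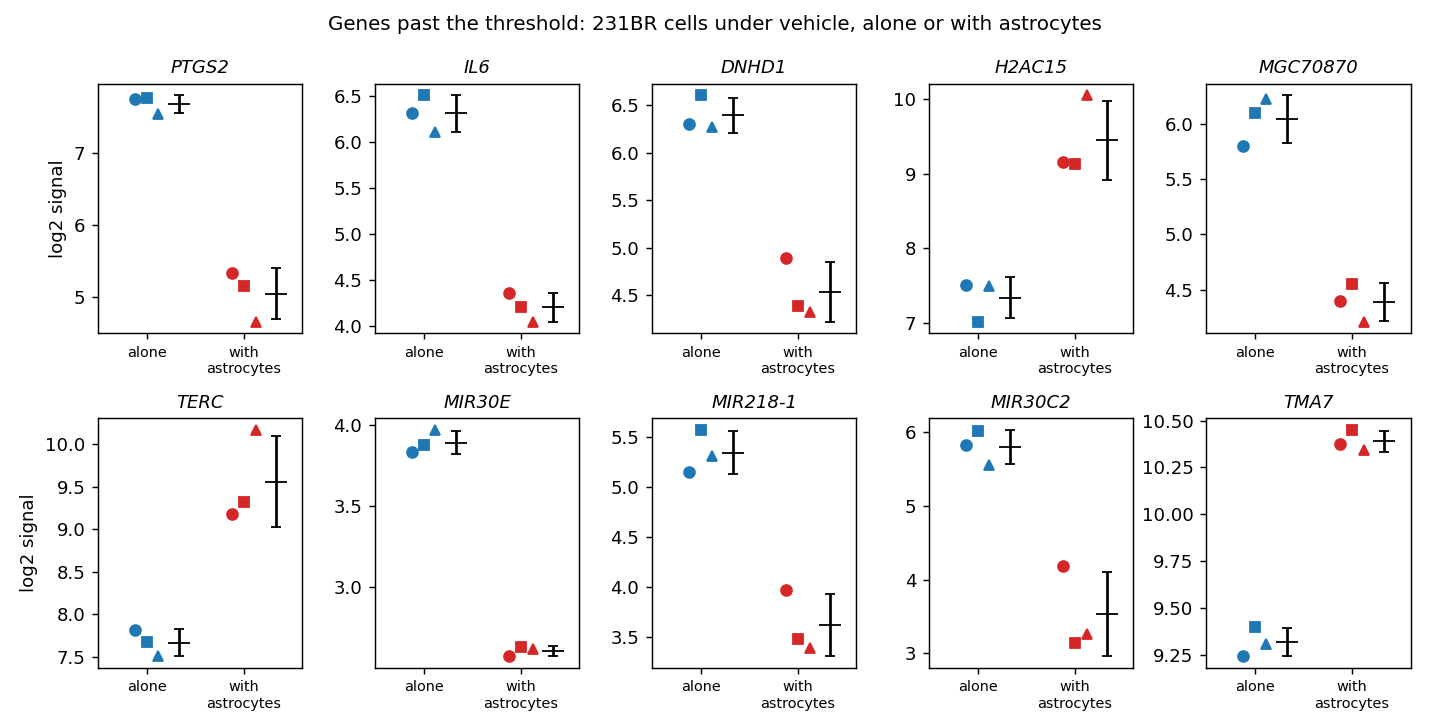
Log2 signal (vertical axes, a separate scale for each gene) of the 10 genes past the threshold in each array of vehicle alone (blue) and vehicle with astrocytes (red); circles, squares and triangles are replicates 1, 2 and 3, and the black bars are the mean ± SD of 3 arrays. In every panel the 2 groups are separate; 7 genes are lower with astrocytes and 3 are higher.

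PTGS2 had the smallest p of all genes. Its signal was 7.75, 7.76 and 7.54 in replicates 1 to 3 of vehicle alone and 5.33, 5.16 and 4.66 in those with astrocytes. The highest array with astrocytes was thus far below the lowest array alone. PTGS2 fell by 2.64 (SE 0.23, adjusted p = 0.00203 in limma), and 3 of the 1796 genes in its bin of level changed further in that direction. The change was −2.38 after quantile normalization and −2.50 with the array SD as covariate. PTGS2 passed the threshold in each of 21 alternative settings that gave it a value, those added after seeing the data aside.

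IL6 followed. Its signal was 6.31, 6.50 and 6.10 in vehicle alone and 4.36, 4.21 and 4.05 with astrocytes, again with no overlap. IL6 fell by 2.10 (SE 0.21, adjusted p = 0.00338 in limma). The change was −2.06 after quantile normalization and −1.89 with the array SD as covariate. IL6 passed in 20 of those 21 settings. The exception was the mean of both IL6 probe sets (adjusted p = 0.0641 in limma), where the second one read 2.90 ± 0.077 (SD, n = 3) alone and 2.91 ± 0.17 (SD, n = 3) with astrocytes, near the bottom of the arrays' range.

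The promoters of the 2 genes with the smallest p are shown because both respond to inflammatory signals through short elements close to the start site. The sequences are the 250 bases before the start in RefSeq for GRCh38.p14, at chr1:186680424-186680673 on the minus strand for PTGS2 and chr7:22726950-22727199 on the plus strand for IL6, written 5′ to 3′ along the gene. Capitals mark matches, on either strand, to the NF-kB consensus, to a C/EBP motif (TTNNGNAA), to the core of the CRE (CGTCA) and to the TATA box (TATAAA).
PTGS2: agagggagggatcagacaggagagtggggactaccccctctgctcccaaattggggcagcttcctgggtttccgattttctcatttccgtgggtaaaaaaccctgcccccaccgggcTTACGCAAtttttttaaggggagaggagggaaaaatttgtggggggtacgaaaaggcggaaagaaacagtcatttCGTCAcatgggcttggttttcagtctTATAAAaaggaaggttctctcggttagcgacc
IL6: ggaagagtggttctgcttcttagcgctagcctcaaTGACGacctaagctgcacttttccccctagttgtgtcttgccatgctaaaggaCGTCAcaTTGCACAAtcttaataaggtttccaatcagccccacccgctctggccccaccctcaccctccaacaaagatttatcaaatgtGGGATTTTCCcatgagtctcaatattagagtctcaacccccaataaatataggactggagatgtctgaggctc
With −1 the last base before the start, the C/EBP match of PTGS2 began at −133, the CRE core at −58 and the TATA box at −32. The PTGS2 window held no match to the NF-kB consensus used. A stretch that departs from that consensus was not marked, such as gggactaccc in PTGS2, which has A where the consensus needs C or T. The lack of a match is therefore not a lack of an NF-kB element. In IL6 the NF-kB match began at −73, the C/EBP match at −155 and the CRE cores at −215 and −162, and there was no TATA box match. Neither window held an AP-1 match (TGANTCA). Among 35116 promoter windows of the same length, 5.21% held an NF-kB match, 33.2% a C/EBP match, 21.2% a CRE core, 10.7% a TATA box and 6.57% an AP-1 match. These are matches of letters, and no binding was measured.

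Few other genes of the prostaglandin pathway passed with PTGS2. Of 20 genes measured, PTGS2 was the 1 that passed over all 12 arrays (6 had an unadjusted p under 0.05), and with the 6 arrays alone PLA2G4A and ABCC4 also passed on the lower side, where 5.76% of all genes did, and none on the higher. The median of the list was 0.12 as deposited, 0.06 after quantile normalization and −0.06 with the array SD as covariate. PLA2G4A, the cytosolic phospholipase that frees arachidonic acid for COX-2, read 5.58, 5.36 and 4.48 in vehicle alone and 3.93, 3.39 and 4.03 with astrocytes. The groups did not overlap, with replicate 3 alone the nearest to the other group. The change was −1.35 (SE 0.35, adjusted p = 0.0871 in limma). ABCC4, a transporter that exports prostaglandins, was at −1.22 (SE 0.44, adjusted p = 0.124 in limma). PTGS1, which encodes the constitutive enzyme COX-1, had a low signal, from 3.00 to 3.61 alone and from 3.68 to 4.02 with astrocytes. PTGES, the inducible prostaglandin E synthase that acts after COX-2, read 7.12 ± 0.07 (SD, n = 3) alone and 7.14 ± 0.21 (SD, n = 3) with astrocytes. HPGD, the enzyme that breaks prostaglandins down, was at 0.04 (SE 0.21). Among the receptors for prostaglandin E2, PTGER4 had a change of 0.12 (SE 0.20), and PTGER1 was at 0.88 (SE 0.34, adjusted p = 0.138 in limma).

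Among the 17 measured genes of the IL-6 family and its STAT3 pathway, IL6 passed over all 12 arrays. With the 6 arrays alone 4 passed, IL6, IL11, IL6ST and OSMR, and all 4 were lower with astrocytes, against 5.76% of all genes lower and 3.11% higher in that fit. The median of the list was −0.49 as deposited, −0.28 after quantile normalization and −0.11 with the array SD as covariate. IL11, another cytokine that signals through gp130, read 7.84, 7.82 and 7.36 alone and 6.76, 6.57 and 6.48 with astrocytes. Its change was −1.07 (SE 0.27, adjusted p = 0.0871 in limma). OSMR encodes the receptor subunit for oncostatin M. OSMR read 8.77, 8.99 and 8.57 alone and 7.51, 4.96 and 5.83 with astrocytes, so the arrays with astrocytes spanned a wide range while all lay below the others. Its change of −2.68 had an SE of 0.70 (adjusted p = 0.0872 in limma) and was −1.35 with the array SD as covariate. IL6ST, the gene for gp130 itself, was at −1.36 (SE 0.74), and STAT3 at −0.88 (SE 0.53), but with the array SD as covariate both turned positive, at 0.13 and 0.15. SOCS3, a feedback target of STAT3, was at −0.20 (SE 0.22), and LIF at −0.21 (SE 0.24).

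IL1B and IL1A, the genes of the interleukin-1 cytokines that switch on NF-kB, were lower in each array with astrocytes without passing over all 12 arrays. IL1B read 8.11, 8.14 and 8.35 alone and 5.96, 5.21 and 5.10 with astrocytes, a change of −2.78 (SE 0.48, adjusted p = 0.0657 in limma). IL1A read 5.91, 5.66 and 5.20 alone and 4.64, 4.62 and 4.62 with astrocytes, a change of −0.97 (SE 0.21, adjusted p = 0.0763 in limma). The groups did not overlap for either gene. Of 22 genes measured in the IL-1 family, none passed over all 12 arrays, where 10 of 17958 did. An unadjusted p under 0.05 was found for 10 of the 22, against 5073 of the 17958. With the 6 arrays alone 5 were lower and 2 higher, where 5.76% and 3.11% of all genes were. The lower ones were IL1B, IL1A, IL18 (−1.65) and the kinase genes IRAK2 (−0.83) and IRAK3 (−1.25), which act below the receptors. The higher ones were IL1RN (0.90) and IL1R2 (0.92), an antagonist and a decoy receptor of interleukin-1, with low means of 3.30 and 3.41 in vehicle alone. With the array SD as covariate IL1B, IL1A and IRAK2 were the members called, all lower, against 2.39% of all genes lower. The median of the list was 0.18 as deposited, −0.03 after quantile normalization and −0.06 with the array SD as covariate.

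Most chemokine genes had a positive change as deposited, 21 of 24, and 3 had a negative one. Chemokines draw leukocytes, and CXCL8 and CXCL2 attract neutrophils. CXCL8 read 8.45, 8.73 and 8.75 alone and 7.11, 6.21 and 7.56 with astrocytes, a change of −1.68 (SE 0.63, adjusted p = 0.132 in limma). CXCL2 read 5.11, 4.77 and 4.87 alone and 3.94, 4.11 and 4.03 with astrocytes, a change of −0.89 (SE 0.19, adjusted p = 0.0763 in limma). The change of CXCL2 was −1.02 after quantile normalization, where it passed (adjusted p = 0.0423 in limma). CXCL8 was at −0.54 with the array SD as covariate. CX3CL1, a membrane-bound chemokine, was at 1.15 (SE 0.34, adjusted p = 0.0965 in limma) and CXCL3 at 0.97 (SE 0.42). Of 24 genes measured, none passed over all 12 arrays (9 higher and 2 lower had an unadjusted p under 0.05), and with the 6 arrays alone these 4 passed, 2 in each direction, where 3.11% of all genes were higher and 5.76% lower. The groups did not overlap for 13 on the higher side and 2 on the lower, against 23.4% and 18.4% of all genes, and 15 of 24 changes lay above the median of their own bin of level. The median was 0.46 as deposited, 0.25 after quantile normalization and 0.04 with the array SD as covariate. CCL2, a monocyte attractant, had a change of 0.16 (SE 0.22), and CXCL10, a target of interferon, was near the bottom of the range at 2.13 ± 0.13 (SD, n = 3) and 2.43 ± 0.30 (SD, n = 3).

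CSF3, the gene of the granulocyte growth factor G-CSF, read 7.81, 7.81 and 8.12 alone and 6.67, 6.58 and 6.84 with astrocytes. Its change was −1.22 (SE 0.19, adjusted p = 0.0522 in limma), just short of the threshold, and −0.73 after quantile normalization. CSF1, the gene of the macrophage growth factor, read 7.98, 7.82 and 7.62 alone and 7.24, 6.57 and 6.90 with astrocytes, a change of −0.90 (SE 0.24, adjusted p = 0.0915 in limma). These 2 were the members of the 7 measured colony-stimulating factors and receptors that passed with the 6 arrays alone, both lower, where 5.76% of all genes were. The median of the list was 0.36 as deposited, 0.07 after quantile normalization and −0.28 with the array SD as covariate, so its sign turned. CSF1R, CSF2RB and CSF3R, receptor genes of blood cells, had a low signal in both groups and changes from 0.36 to 0.55.

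**Figure D3:**
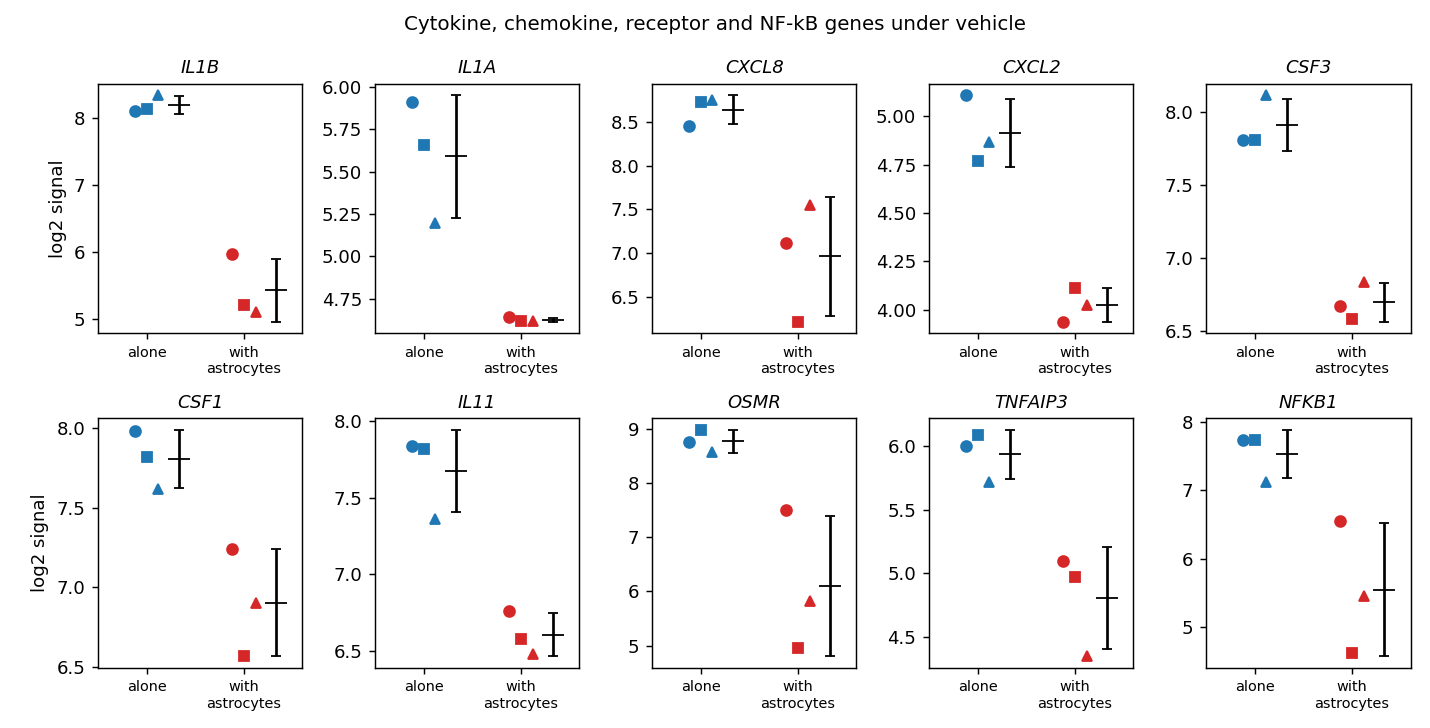
Log2 signal (vertical axes, a separate scale for each gene) of 10 cytokine, chemokine, receptor and NF-kB genes in each array of vehicle alone (blue) and with astrocytes (red), with replicates 1, 2 and 3 as circles, squares and triangles and black bars for the mean ± SD of 3 arrays. These 10 were picked from the genes described, and all are lower with astrocytes. Genes that were higher, such as CX3CL1, CXCL3 and IL1RN, are not drawn. The groups do not overlap for any of the 10, where 18.4% of all genes were lower without overlap. IL1A is tight with astrocytes, at 4.64, 4.62 and 4.62, while OSMR spans 4.96 to 7.51.

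NF-kB is a family of dimeric transcription factors held in the cytoplasm by inhibitors until a cytokine or stress signal frees them. Of 28 measured genes for its subunits, regulators and other targets, none passed over all 12 arrays, and 10 had an unadjusted p under 0.05. With the 6 arrays alone 7 were lower, against 5.76% of all genes, and with the array SD as covariate 4 were lower, against 2.39%. None was higher in either fit. The median was −0.29 as deposited, −0.06 after quantile normalization and −0.09 with the array SD as covariate. Of the 28 changes 14 lay above the median of their own bin of level and 14 below it. TNFAIP3, whose product A20 ends NF-kB signalling, read 5.93 ± 0.19 (SD, n = 3) alone and 4.81 ± 0.40 (SD, n = 3) with astrocytes. TNFAIP3 was thus at −1.13 (SE 0.23, adjusted p = 0.0763 in limma). REL, a subunit, was at −1.03 (SE 0.23), and NFKBIZ, a nuclear cofactor needed for IL6 transcription, at −0.87 (SE 0.23). NFKB1, the subunit p50 and its precursor, read 7.74, 7.73 and 7.12 alone and 6.55, 4.61 and 5.46 with astrocytes. Its change of −1.99 (SE 0.59) was −0.81 with the array SD as covariate.

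Among early response genes the changes ran both ways, with a median of 0.04 over 16 members as deposited, 0.39 after quantile normalization and −0.04 with the array SD as covariate. None passed over all 12 arrays (6 had an unadjusted p under 0.05), and with the 6 arrays alone 3 were higher and 1 lower, where 3.11% and 5.76% of all genes were. KLF4 was at −0.96 (SE 0.21), while KLF2 was at 1.06 (SE 0.28), IER5 at 0.93 (SE 0.23) and EGR4 at 1.23 (SE 0.37). KLF2 and KLF4 encode related zinc finger factors, and their groups did not overlap in either case.

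H2AC15, which encodes a histone H2A, rose furthest of the 10 genes that passed. Its signal was 7.51, 7.02 and 7.49 in vehicle alone and 9.16, 9.12 and 10.05 with astrocytes. No gene of the same bin of level had a larger positive change. H2AC15 rose by 2.11 (SE 0.27, adjusted p = 0.0263 in limma), and by 2.40 after quantile normalization and 2.16 with the array SD as covariate. Replication-dependent histone genes are transcribed in S phase, and their mRNAs end in a stem-loop in place of a poly(A) tail. Of 61 such genes on the list 53 were measured, 1 passed over all 12 arrays, and 4 were higher and none lower with the 6 arrays alone, where 3.11% of all genes were higher. As deposited 51 of the 53 changes were positive, and for 26 the groups did not overlap on the higher side, against 23.4% of all genes. None of the 53 was lower in all 3 arrays with astrocytes, whereas 18.4% of all genes were. The median was 0.52 as deposited, 0.51 after quantile normalization and 0.52 with the array SD as covariate. Of the 53 changes 42 lay above the median of their own bin of level. So did 41 of 52 oxidative phosphorylation genes and 53 of 59 cytosolic ribosomal protein genes. A shift above the bin median was therefore not particular to the histones. The mean level of the 53 genes was 5.48 to 5.71 on the arrays alone and 5.84 to 6.53 on those with astrocytes. H4C2, a histone H4 gene with a high signal, read 9.56, 9.70 and 9.34 alone and 10.17, 10.45 and 10.84 with astrocytes, and H2BC9 was at 1.58 (SE 0.45) and H1-2 at 0.86 (SE 0.25). Histone genes of 1 class are nearly identical in sequence, so a probe set may read several of them.

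Other genes of the cell cycle did not share this direction as deposited. The median was −0.42 over 38 genes of DNA replication and −0.71 over 37 genes of G2 and mitosis, and no member passed over all 12 arrays. An unadjusted p under 0.05 was found for 3 and 7 of them. In the fit of the 6 arrays 1 DNA replication gene and 5 G2 and mitosis genes were lower, against 5.76% of all genes, and none was higher. With the array SD as covariate 4 DNA replication genes were higher and 1 lower, and of the G2 and mitosis genes 1 was lower and none higher. In that fit 4.10% of all genes were higher and 2.39% lower. CENPE and CENPF, genes of kinetochore proteins, were at −1.68 (SE 0.50) and −1.47 (SE 0.49), CCNB2, a mitotic cyclin, at −1.08 (SE 0.38) and the proliferation marker MKI67 at −1.25 (SE 0.45). These medians depended on the scaling. DNA replication turned to 0.02 after quantile normalization and 0.35 with the array SD as covariate, while G2 and mitosis was −0.35 and 0.33. No direction was therefore settled for either list.

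TERC, the RNA template of telomerase, rose by 1.89 (SE 0.26, adjusted p = 0.0335 in limma). Its signal was 7.82, 7.68 and 7.51 in vehicle alone and 9.18, 9.32 and 10.17 with astrocytes. As for H2AC15, replicate 3 with astrocytes stood highest. TERC rose by 2.18 after quantile normalization and by 1.97 with the array SD as covariate. The other measured genes of telomerase and telomere protection, 18 with TERC, did not pass. In that list 5 of 18 changes were positive, and the median was −0.24 as deposited, 0.14 after quantile normalization and 0.26 with the array SD as covariate. TERT, the reverse transcriptase of the enzyme, was at 0.30 (SE 0.24) and at −0.08 with the array SD as covariate, and its signal was 4.87 ± 0.08 (SD, n = 3) alone. NOP10, NHP2 and GAR1, proteins that bind the end of TERC, had changes of −0.25, −0.08 and −0.10.

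TMA7, a translation machinery gene, rose by 1.07 (SE 0.16, adjusted p = 0.0470 in limma). It read 9.25, 9.40 and 9.31 alone and 10.38, 10.45 and 10.34 with astrocytes, so both groups were tight. No gene of the highest bin of level had a larger positive change. A second TMA7 probe set had a change of 0.97. DNHD1, a gene of the dynein heavy chain family, fell by 1.86 (SE 0.23, adjusted p = 0.0241 in limma), from 6.30, 6.61 and 6.27 to 4.90, 4.38 and 4.33. The other 3 DNHD1 probe sets changed less, by −0.32, −0.61 and −0.76. MGC70870 read 5.80, 6.10 and 6.22 alone and 4.40, 4.55 and 4.21 with astrocytes, and fell by 1.65 (SE 0.22, adjusted p = 0.0307 in limma).

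The 3 microRNA genes that passed were MIR30E, MIR30C2 and MIR218-1. MicroRNAs are short RNAs cut from hairpins, and they pair with messenger RNAs mainly through the seed, bases 2 to 8. MIR30E and MIR30C2 belong to the miR-30 family, and their main arms share a seed, whereas that of miR-218 differs. The mature sequences are from RefSeq for GRCh38.p14, written 5′ to 3′ with the seed in capitals, to show which called genes could give RNAs of the same seed.
hsa-miR-30e-5p: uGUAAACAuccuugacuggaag
hsa-miR-30c-5p: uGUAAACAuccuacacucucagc
hsa-miR-218-5p: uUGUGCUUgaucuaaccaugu
MIR30E lies at chr1:40754371-40754392 on the plus strand (the bases of its 5p arm), MIR30C2 at chr6:71377003-71377025 on the minus strand and MIR218-1 at chr4:20528299-20528319 on the plus strand. MIR30E lies inside the span of NFYC and MIR218-1 inside that of SLIT2.

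MIR30E read 3.83, 3.87 and 3.97 in vehicle alone and 2.57, 2.63 and 2.62 with astrocytes, and fell by 1.28 (SE 0.18, adjusted p = 0.0366 in limma). Its mean with astrocytes, 2.61, lay within the lowest bin of level (1.55 to 2.87), near the bottom of the arrays' range, so the size of its fall here and under estradiol may not be exact. In its bin of level in vehicle alone the median change was 0.43, and 85.2% of genes were higher with astrocytes. MIR30C2 read 5.81, 6.01 and 5.55 alone and 4.18, 3.14 and 3.26 with astrocytes, and fell by 2.27 (SE 0.33, adjusted p = 0.0393 in limma). MIR218-1 read 5.15, 5.57 and 5.30 alone and 3.97, 3.48 and 3.39 with astrocytes, and fell by 1.73 (SE 0.25, adjusted p = 0.0366 in limma). For all 3 genes the groups were separate. After quantile normalization MIR30E kept its call, while MIR30C2 (−2.29) and MIR218-1 (−1.84) had adjusted p of 0.0636 and 0.0630 in limma.

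The other genes that encode the same or related microRNAs did not pass. MIR30C1, which gives the same mature miR-30c-5p as MIR30C2, was at −0.25 (SE 0.20, adjusted p = 0.381 in limma), and MIR30A was at −0.29 (SE 0.23). MIR218-2, which gives the same mature miR-218-5p as MIR218-1, was at 0.20 (SE 0.28). MIR30D was at 0.58 (SE 0.16), with no overlap of its groups. A whole-transcript array can read a hairpin, a mature RNA or a longer transcript over the gene, and which of these gave the signal was not tested. SLIT2, the host gene of MIR218-1 and a guidance ligand, read 8.95, 8.97 and 8.49 alone and 7.92, 6.19 and 6.21 with astrocytes. SLIT2 was at −2.03 (SE 0.60, adjusted p = 0.0965 in limma) and passed with the 6 arrays alone. NFYC, the host gene of MIR30E and a subunit of the CCAAT-binding factor, was at −0.08 (SE 0.41) and turned to 0.36 after quantile normalization. Of the processing genes, DROSHA was at −1.24 (SE 0.44), DICER1 at −1.39 (SE 0.64), DGCR8 at −0.22 (SE 0.19) and XPO5 at −0.89 (SE 0.51), and none passed. Among 180 microRNA genes measured 3 passed, against 0.0557% of all genes, and with the 6 arrays alone 15 were higher and 12 lower, where 3.11% and 5.76% of all genes were. Their median change was 0.23.

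The unfolded protein response raises the capacity of the endoplasmic reticulum to fold and clear proteins, and its genes had a median of −0.81 over 26 members. None passed over all 12 arrays, and 10 had an unadjusted p under 0.05. With the 6 arrays alone 9 of 26 were lower and none higher, against 5.76% of all genes lower, and for 17 all 3 arrays with astrocytes lay below all 3 alone, against 18.4% of all genes. The median was −0.48 after quantile normalization and −0.19 with the array SD as covariate. In that last fit 3 members were lower and none higher, against 2.39% and 4.10% of all genes. EDEM1, which helps to send misfolded proteins for degradation, read 7.66, 7.25 and 6.88 alone and 5.86, 4.95 and 5.17 with astrocytes. Its change was −1.94 (SE 0.34, adjusted p = 0.0689 in limma). SEL1L and HERPUD1, parts of the complex that exports such proteins, were at −1.74 (SE 0.46) and −1.73 (SE 0.46), and EDEM3 at −1.70 (SE 0.49). Of the 26 members 20 lay below the median of their own bin of level. The mean level of the list was 7.49 to 7.93 on the arrays alone and 6.64 to 7.24 on those with astrocytes.

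ATF4 is a transcription factor that is translated under amino acid shortage and other stress and turns on amino acid transport and synthesis. Of 34 measured genes of its response none passed over all 12 arrays (14 had an unadjusted p under 0.05), and with the 6 arrays alone 11 were lower, against 5.76% of all genes. With the array SD as covariate 8 were lower, against 2.39%, and none was higher in either fit. The median was −0.45 as deposited and −0.25 after quantile normalization, but 0.02 with the array SD as covariate. Of the 34 changes 16 lay above the median of their own bin of level and 18 below it. As a whole the list thus moved about as genes of its level did. VLDLR was at −1.30 (SE 0.23), ASNS, asparagine synthetase, at −1.12 (SE 0.25) and CTH, which makes cysteine, at −1.61 (SE 0.37). DDIT3, the gene of the stress factor CHOP, read 7.40, 7.16 and 6.93 alone and 6.08, 5.90 and 6.51 with astrocytes. SLC7A11, the cystine transporter gene, read 9.10, 8.96 and 7.99 alone and 7.09, 5.80 and 5.70 with astrocytes. SLC7A11 was at −2.48 (SE 0.65, adjusted p = 0.0872 in limma) and at −1.20 with the array SD as covariate.

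**Figure D4:**
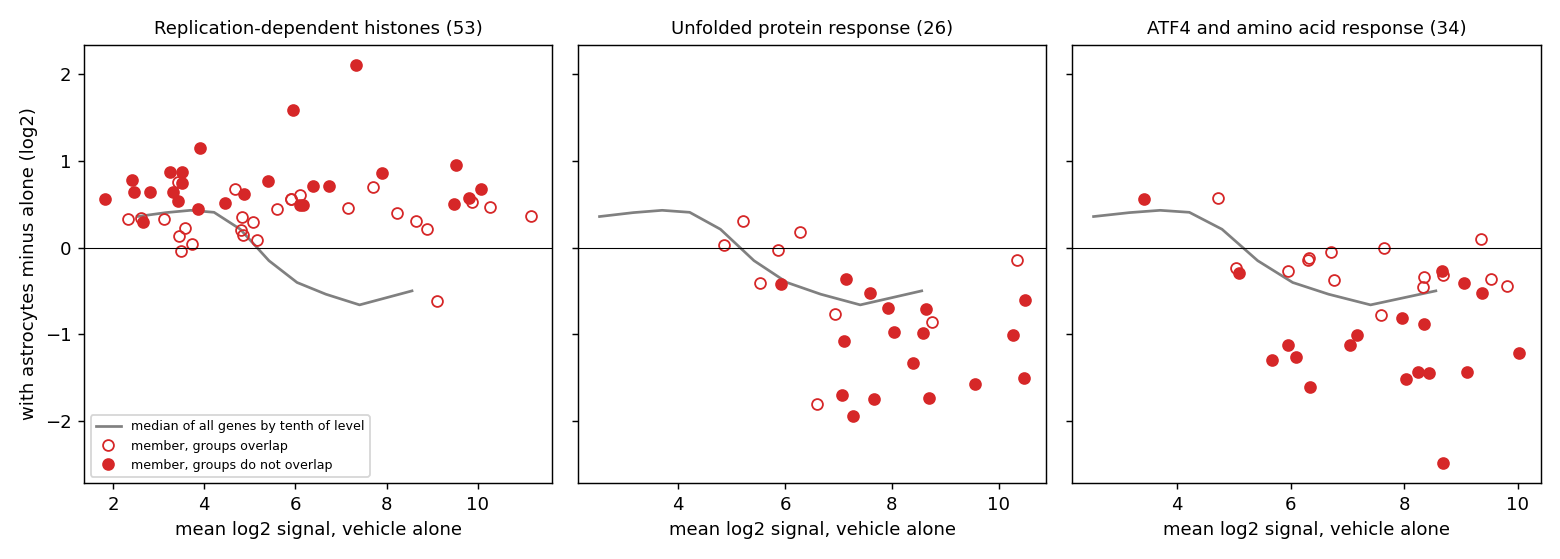
Change with astrocytes (log2, vertical axis) against the mean log2 signal in vehicle alone (horizontal axis) for the measured members of 3 gene lists; filled circles are members whose groups do not overlap, and the grey line joins the medians of all genes in 10 bins of level. Of the histone genes 42 of 53 lie above the median of their own bin, and of the unfolded protein response genes 20 of 26 lie below it. Of the 34 ATF4 genes 16 lie above it and 18 below.

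Further lists changed their median with the scaling, and where its sign turned no direction was settled. The hypoxia and glycolysis list was at −0.50 as deposited, −0.20 after quantile normalization and 0.15 with the array SD as covariate, with STC1 at −1.40 (SE 0.34) and LOX at −2.04 (SE 0.52). The cholesterol and fatty acid synthesis list was at −0.53, −0.23 and 0.22 under the same 3 settings, with SQLE at −1.38 (SE 0.38) and ACACA at −1.40 (SE 0.47). The ERK feedback list was at −0.57, −0.26 and 0.02, with SPRED3 at 1.24 (SE 0.33) and SPRED1 at −1.49 (SE 0.41). Oxidative phosphorylation was at −0.06, 0.29 and 0.59. With the array SD as covariate 17 of its 52 measured genes were higher and none lower, against 4.10% of all genes higher. In that fit, however, all genes of the ninth and highest bins of level had medians of 0.11 and 0.33. With the 6 arrays alone 2 were higher and 1 lower, against 3.11% and 5.76% of all genes, and after quantile normalization none passed. NDUFS7, a complex I subunit, read 6.58, 6.38 and 6.62 alone and 7.39, 7.65 and 7.81 with astrocytes, a change of 1.09 (SE 0.19, adjusted p = 0.0689 in limma). Its complex I partners NDUFB8 and NDUFB7 were at 0.75 (SE 0.22) and 0.81 (SE 0.23), and NDUFS1 at −1.45 (SE 0.53). YAP target genes kept a negative median, at −0.50, −0.25 and −0.09, with ASAP1 at −1.41 (SE 0.36) and CRIM1 at −1.56 (SE 0.43). Epithelial junction and keratin genes kept a positive one, at 0.46, 0.36 and 0.18, with CRB3 at 1.48 (SE 0.39) and KRT7 at 0.79 (SE 0.21), but the junction genes DSP and TJP1 were at −1.47 (SE 0.43) and −1.36 (SE 0.42). Over all 12 arrays no member of these 6 lists passed, and from 5 to 10 of each had an unadjusted p under 0.05.

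**Figure D5:**
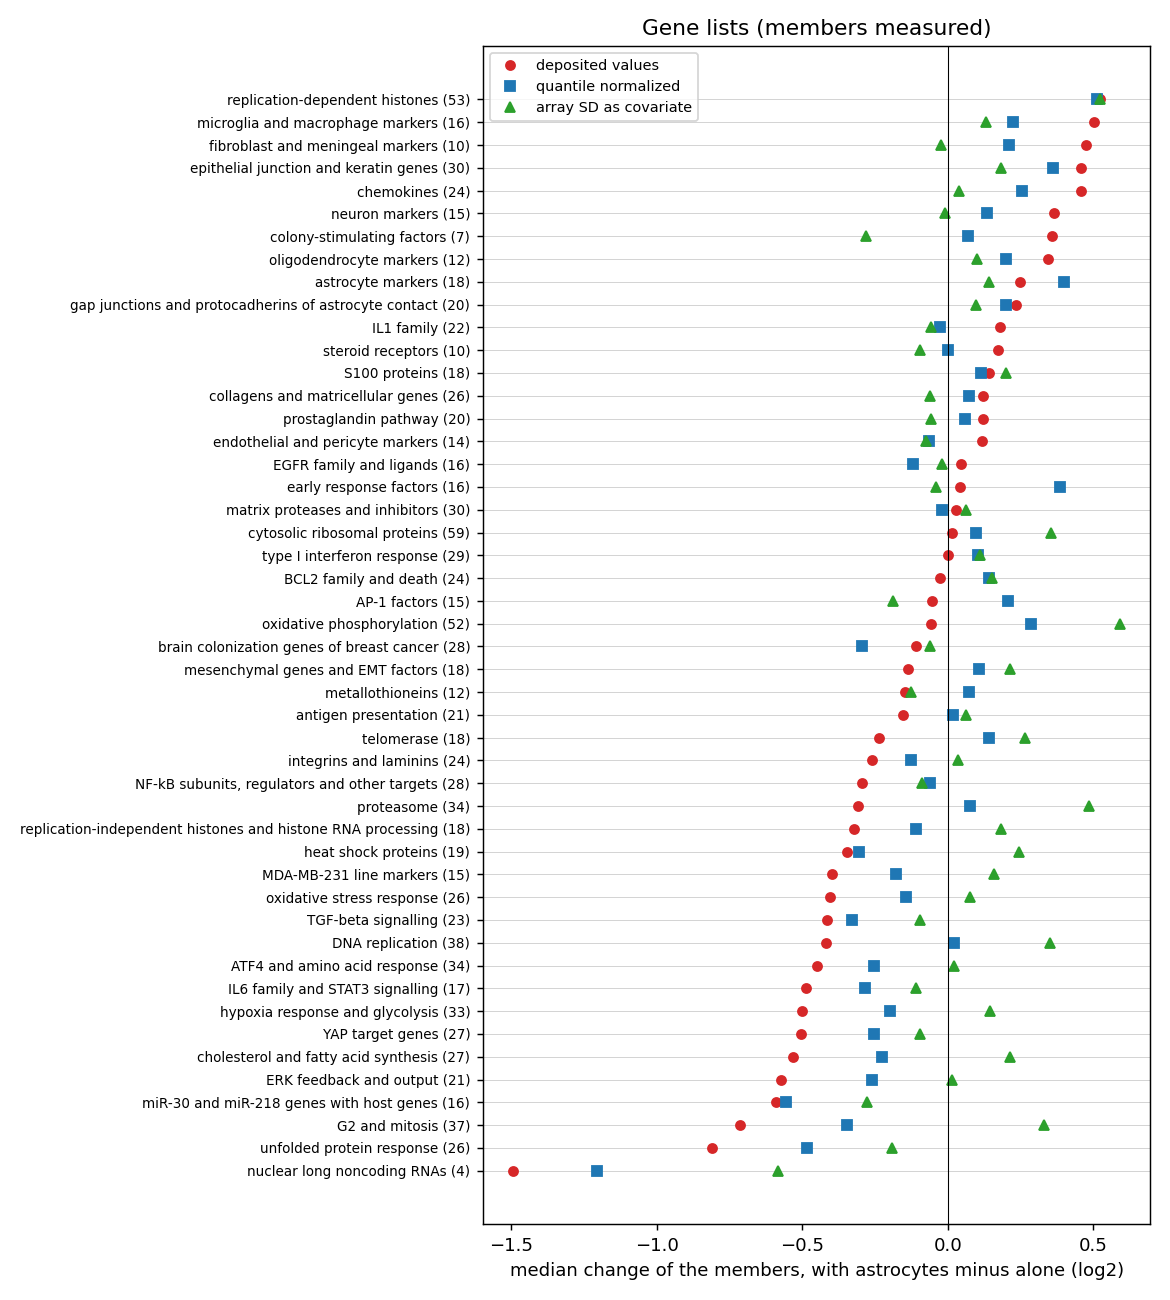
Median change with astrocytes (log2, horizontal axis) of 48 gene lists, with the number of measured members in parentheses, as deposited (circles), after quantile normalization (squares) and with the SD of each array as covariate (triangles). The replication-dependent histones are at 0.52, 0.51 and 0.52, while G2 and mitosis moves from −0.71 through −0.35 to 0.33.

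Genes linked to brain colonization by breast cancer had a median of −0.11 over 28 members, −0.29 after quantile normalization and −0.06 with the array SD as covariate. PTGS2, the 1 member that passed, is on that list. PLAAT4, a phospholipase gene, was at 0.84 (SE 0.23), LAMA4, a laminin chain, at −1.23 (SE 0.38) and L1CAM, an adhesion molecule by which tumour cells grip vessels, at −0.86 (SE 0.29). L1CAM read 6.27, 6.18 and 6.46 alone and 6.08, 4.92 and 5.32 with astrocytes. By its title the series asks about estrogen that acts by way of astrocytes, and 6 genes of that question were followed. EGFR read 9.24, 9.15 and 8.79 alone and 8.69, 7.78 and 7.42 with astrocytes, at −1.09 (SE 0.44, adjusted p = 0.146 in limma). S100A4, a calcium-binding protein gene of motile cells, was at 0.11 (SE 0.24). The estrogen receptor genes ESR1 and ESR2 had a low signal, 3.61 ± 0.29 and 3.66 ± 0.31 (SD, n = 3) alone, with changes of 0.60 (SE 0.36) and 0.21 (SE 0.25). GPER1 was at 0.02 (SE 0.19) and PGR at 0.39 (SE 0.30). Of these 6 genes S100A4, ESR1, ESR2 and PGR turned negative with the array SD as covariate.

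The largest changes among genes that passed with the 6 arrays alone included several outside these lists. By the rule for naming genes, the largest negative changes were those of ZNF737 (−3.33), SMG1P5 (−2.86), IL1B, BLID (−2.71), OSMR, PTGS2, APOOL (−2.50) and SLC7A11. Of these 8, PTGS2 passed over all 12 arrays. ZNF737, a zinc finger gene, read 6.83, 6.61 and 4.99 alone and 2.81, 2.84 and 2.79 with astrocytes, so that replicate 3 alone stood below its group. SMG1P5, a pseudogene of a gene family with near-identical copies, read 8.11, 8.82 and 9.16 alone and 7.66, 4.61 and 5.22 with astrocytes. The largest positive changes were those of CELP (2.21), DGCR11 (2.17), ZNF75D (2.13), H2AC15, MYO15B, TERC, AOC3 (1.87) and SEC1P (1.82), of which H2AC15 and TERC passed over all 12 arrays. CELP, a pseudogene, read 4.82, 4.54 and 6.01 alone and 6.63, 7.85 and 7.51 with astrocytes. ZNF75D read 4.22, 3.93 and 4.76 alone and 6.22, 6.89 and 6.19 with astrocytes, but another of its probe sets had a change of 0.04. AOC3 and MYO15B had other probe sets too, at −0.25 for AOC3 and at 0.39 and 0.41 for MYO15B.

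The labelled cell type was checked against markers. Of 15 measured markers of the MDA-MB-231 line 13 lay above the median gene in vehicle alone and 14 with astrocytes, with VIM at 10.68 ± 0.18 (SD, n = 3) alone and 10.33 ± 0.04 (SD, n = 3) with astrocytes. Astrocyte markers numbered 18 measured, and their mean level was 4.76 to 5.02 on the arrays alone and 5.05 to 5.11 on those with astrocytes. None passed over all 12 arrays or with the 6 arrays alone, and 4 higher and 2 lower had an unadjusted p under 0.05. Of the 18 changes 12 were positive and 13 lay above the median of their own bin of level. The median was 0.25 as deposited, 0.40 after quantile normalization and 0.14 with the array SD as covariate. GFAP, the filament protein of astrocytes, read 4.74, 4.83 and 5.49 alone and 5.45, 6.25 and 5.93 with astrocytes, with overlapping groups. AQP4 stayed near the bottom of the range, at 3.04 ± 0.15 (SD, n = 3) and 2.89 ± 0.23 (SD, n = 3), and the glutamate transporter gene SLC1A3, with the lowest change of the list, was at −0.92 (SE 0.29). The mean level of 16 markers of microglia and macrophages was 3.94 to 4.28 alone and 4.40 to 4.72 with astrocytes, and that of 15 neuron markers 3.69 to 3.93 and 4.07 to 4.33. None of these passed over all 12 arrays, where 4 and 3 had an unadjusted p under 0.05, against 5073 of 17958 genes. With the 6 arrays alone 2 of the 16 and 2 of the 15 were higher and none lower, against 3.11% and 5.76% of all genes. SPI1 (1.29), CD14 (0.86) and STMN2 (1.07) were among these. In vehicle alone 2 of the 16 and 1 of the 15 lay above the median gene, and genes of such low levels had a positive median change in general. The part of mouse RNA in any signal was not tested, and fewer cells of a type and less RNA per cell cannot be told apart in such samples.

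Under 10 nM estradiol the same 10 genes passed in the same direction, against controls of their own but in the same fit, so the spread is shared. The 10 were also picked in that fit, so their passing again is no independent replication. How many of all genes passed under estradiol is not given here, so this overlap has no share to be read against. The changes under vehicle and under estradiol were −2.64 and −2.56 for PTGS2, −2.10 and −2.23 for IL6, and 2.11 and 2.44 for H2AC15. They were −1.86 and −1.68 for DNHD1, −1.65 and −2.38 for MGC70870, and 1.89 and 1.87 for TERC. For the microRNA genes and TMA7 they were −1.28 and −1.20 for MIR30E, −1.73 and −2.06 for MIR218-1, −2.27 and −2.40 for MIR30C2, and 1.07 and 1.10 for TMA7. No gene of 17958 differed between the astrocyte effects with and without estradiol at an adjusted p of 0.05 in limma's interaction test, and 31 had an unadjusted p under 0.05. That is far less than a share of 0.05 of the genes, which such p-values would reach on average with no difference anywhere. The test therefore had little power in this fit, and the lack of calls does not show that the effects were equal. Among the 10, MGC70870 had the smallest unadjusted interaction p, 0.0378 in limma, which did not pass after adjustment.

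The number of genes that passed turned on single arrays. Without any 1 array of vehicle alone, or without replicate 2 or 3 of vehicle with astrocytes, PTGS2 and IL6 were the only genes called. Without replicate 1 of vehicle with astrocytes, 1630 genes were called, and the same 10 were among them. Of the estradiol arrays, which enter for the spread, leaving out a replicate alone or replicate 3 with astrocytes gave 2 or 3 genes, and leaving out replicate 1 or 2 with astrocytes gave 1122 or 6107. The directions of the 10 were the same in each of these fits. Across the 12 fits that left out 1 array, the change ranged from −2.78 to −2.44 for PTGS2 and from 1.80 to 2.27 for H2AC15. H2AC15 and TERC passed in 3 of these 12 fits, as did MIR30E, MIR30C2, MIR218-1 and TMA7, and DNHD1 and MGC70870 passed in 4. The adjusted p in limma reached 0.310 for TMA7 and 0.297 for the microRNA genes.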

How the data were processed

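The authors deposited 1 table of log2 values for 33297 probe sets on 12 arrays, and RMA and Partek are the tools listed in the submitters' processing notes, with no version or order of use. RMA corrects background, quantile-normalizes and summarises probes on the log2 scale; a shared distribution was not found in the deposited columns, whose SD differed between arrays. The genome build behind the probe sets is not given in the sources used here. By a probe table, 19181 probe sets carry a single gene symbol, 2055 carry several and 12061 are unnamed here. Probe sets with 1 symbol were used, and for the 895 genes with several the one with the highest mean over the 12 arrays stood for the gene, which left 17958 genes with no filter on low values.

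Groups came from the treatment labels. limma 3.58.1 in R 4.3.3 fitted 1 mean per group over all 12 arrays (lmFit, contrasts.fit and plain eBayes), two-sided, with Benjamini-Hochberg adjustment over all genes and a threshold of 0.05. SEs come from that fit. No exact permutation test was run, since with 3 arrays in each group its smallest two-sided p is 0.1. Changes are differences of mean log2 signal, with astrocytes minus alone. The same code was tested on simulated data with independent noise for each gene and no array-wide difference in SD. That test therefore does not cover the differences in range seen between these arrays. Figures were drawn with matplotlib 3.10.9 in Python 3.11.15.

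Alternatives were the 6 arrays of the comparison, the replicate number as a block, the array SD as covariate, quantile normalization, median centring, a filter on level, other uses of probe sets, trend and robust moderation, arrayWeights, a threshold of 0.1 and each array left out in turn. The 6 arrays with the array SD as covariate or with quantile normalization were added after seeing the data. The genes and the 48 lists were chosen with earlier results of these data known. Named are all genes past the threshold, the 8 largest changes each way that passed with the 6 arrays alone without overlap of the groups (leaving out microRNA, snoRNA, keratin-associated, olfactory receptor and placeholder names), up to 4 members of each list with the smallest p, the members of the prostaglandin, IL-6, IL-1, chemokine, colony-stimulating factor, telomerase and microRNA lists, defining cell type markers, and EGFR, S100A4, PGR, GPER1 and both estrogen receptor genes. Lists are described by counts and medians, with no test. Promoter and microRNA sequences are from RefSeq for GRCh38.p14, matched by gene symbol.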

Additional observations from a re-analysis of the deposited data

How the results depend on the processing

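Against 10 genes called over all 12 arrays, limma called 1594 with the 6 arrays of the comparison, 1166 with the array SD as covariate, 5 when only the 8979 genes above the median level were tested, 41 when each of 19181 probe sets was tested, and 1309 at a threshold of 0.1. It called 12445 with arrayWeights, whose estimation stopped before it converged. Leaving out 1 array gave 2 to 6107. Quantile normalization gave 14 (4 higher and 10 lower), median centring 11, averaging probe sets of a gene 7, and trend and robust moderation 7, none of them higher. Chosen after seeing the data, the 6 arrays with the array SD as covariate gave 0 (1507 at an unadjusted p under 0.05), and the 6 arrays after quantile normalization gave 6. The cause of these differences was not tested.

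With the replicate number as a block the count was 2583. The labels do not say what the numbers mark. After subtracting group means, arrays of 1 number correlated at r = 0.58, −0.44 and 0.065, and not every array correlated best with its own number. The arrays also differed in the SD of their signal, so these correlations cannot tell whether the numbers pair the samples.

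Of 134 named genes, 125 kept their sign under all settings but the 2 added after seeing the data. With the array SD as covariate the sign turned for IL6ST (0.13), STAT3 (0.15), ESR1 (−0.039), ESR2 (−0.028), PGR (−0.15), S100A4 (−0.25), TERT (−0.079) and NFYC (0.61). In that fit of the 6 arrays it turned for ESR1 (−0.33), PGR (−0.16), TERT (−0.071) and NFYC (0.048). After quantile normalization, over 12 or 6 arrays, it turned for ESR2 (−0.075) and NFYC (0.36). GPER1 ranged from −0.10 to 0.16 when 1 array was left out. None of these genes was called over all 12 arrays. Of the 48 list medians, 36 changed sign under some of those settings. These include the filter on level, where the median is taken over the remaining members only, so a sign can turn without any member changing. The interaction gave 0 genes in limma with the array SD as covariate too.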

Other observations

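Beside MIR30C2 and MIR218-1, genes of another small RNA locus read lower with astrocytes, without passing over all 12 arrays. BLID lies inside the span of MIR100HG, as does MIRLET7A2, which was chosen after its values were seen, together with MIR100 and MIR125B1. BLID read 7.10, 7.83 and 7.60 in vehicle alone and 5.86, 4.58 and 3.98 with astrocytes, and MIRLET7A2 read 7.62, 8.21 and 6.68 alone and 4.78, 4.47 and 3.09 with astrocytes. Their changes were −2.71 (SE 0.41, adjusted p = 0.0512 in limma) and −3.39 (SE 0.55, adjusted p = 0.0585 in limma). MIR100 was at −1.20 (SE 0.44) and MIR125B1 at −0.01 (SE 0.26), and neither passed over all 12 arrays.

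Long noncoding RNAs of the nucleus were read as well. MALAT1 read 10.26, 10.13 and 9.72 alone and 8.72, 8.16 and 6.85 with astrocytes, a change of −2.12 (SE 0.68, adjusted p = 0.105 in limma), and TUG1 was at −1.87 (SE 0.52, adjusted p = 0.0917 in limma). MEG3 was at 1.38 (SE 0.50, adjusted p = 0.124 in limma). These 3 passed with the 6 arrays alone, 1 higher and 2 lower, where 3.11% and 5.76% of all genes were. None passed over all 12 arrays, whether as deposited, after quantile normalization or with the array SD as covariate. The median of the 4 measured genes of that list was −1.49 as deposited, −1.20 after quantile normalization and −0.58 with the array SD as covariate.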
